A study of Mus musculus with 7 samples.

Results

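The 10 genes described here are known for their use in osteoclasts. They were taken by name, with no threshold on any value, from the 43346 genes in the deposited estimated counts, and each symbol matched a single Ensembl identifier in GENCODE release M21. They are the receptors Tnfrsf11a, Oscar, Calcr and Itgb3, the transcription factor Nfatc1, the fusion proteins Dcstamp and Ocstamp, and the resorption genes Acp5 and Ctsk. The last is Atp6v0d2, a proton pump subunit with a role in fusion. Total RNA was sequenced from proximal and distal tibial growth plates of 7 male mice aged 21 days, all of the strain C57BL/6JxCAST/EiJ F1 and all without treatment. The mice are 7 replicates of 1 condition, numbered 1, 2, 3, 4, 5, 7 and 8 in the labels. Every mouse carries a C57BL/6J (B6) and a CAST/EiJ (CAST) copy of each autosomal gene, so the design compares the alleles inside each animal, and the question is whether they differ in expression.

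Osteoclasts are multinucleate cells that form from precursors of the monocyte and macrophage lineage and dissolve bone and calcified cartilage. In the growth plate they work at the border where cartilage gives way to bone. Their formation needs the cytokine RANKL, encoded by Tnfsf11, which binds RANK on the precursor, and colony stimulating factor 1, which binds the receptor encoded by Csf1r. RANK signalling, helped by receptors that pair with adaptors carrying activation motifs, leads to the induction of Nfatc1, which drives cell fusion and the genes for acid and enzyme secretion.

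The labels name the tissue growth plate chondrocyte, and the RNA came from homogenized tissue. Col2a1, the main collagen gene of cartilage, averaged 53738 CPM (counts scaled to 1000000 per library), and Col1a1, a collagen gene of bone, averaged 46544. The 9 chondrocyte markers, 9 osteoblast markers, 10 macrophage markers, 8 erythroid markers, 8 neutrophil markers, 7 B lineage markers, 6 endothelial markers and 6 muscle markers checked were all above 0 in every mouse. The libraries therefore hold RNA of bone, marrow and muscle beside that of cartilage. Depth was 14098019 counts in mouse 7 to 37849667 counts in mouse 5. The small RNAs Rn7s1, Rn7s2 and Rn7sk took 15.5% to 23.8% of the counts of a mouse, and X-linked counts were 90.2% to 91.6% B6. A male has its X from its mother, and with the X mainly B6 in every mouse the strain of an allele and the parent it came from cannot be told apart.

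The promoters of 5 of the 10 genes (Acp5, Calcr, Ctsk, Oscar and Tnfrsf11a) matched a table of RefSeq start sites on GRCm38.p6, in 8 windows of the 250 bases before a start. Matches on either strand to motifs of factors known from osteoclasts are shown, since the values of these genes are compared throughout. The letters searched were TGAGTCA and TGACTCA (AP-1), CACGTG and CATGTG (E-box, bound by the MITF family), GAGGAA (a core of PU.1 sites) and GGAAA (a core of NFAT sites). The AP-1 words are reverse complements of each other, and the PU.1 and NFAT cores can share bases. Each line gives 30 bases on the strand of the gene, 5′ to 3′, with the motif in capitals as it reads on that strand, so CACATG is the E-box CATGTG read from the other strand, TTCCTC the PU.1 core and TTTCC the NFAT core.
Acp5, E-box, chr9:22130671-22130700, minus strand: aagtccagtgctCACATGacccaaggggag
Oscar, E-box, chr7:3616158-3616187, minus strand: cctctgttccctaaacaggactctCACATG
Ctsk, PU.1 core, chr3:95499140-95499169, plus strand: aaatgtgtgtccTTCCTCcctaacccctcc
Oscar, PU.1 core, chr7:3616377-3616406, minus strand: tttccatttttcTTCCTCccacctgcccct
Calcr, NFAT core, chr6:3764761-3764790, minus strand: tctgagtgcctaGGAAAgtattttgtcttg
The E-box CATGTG was in 2 of the 8 windows, those of Acp5 and Oscar, against 12.3% of all 32851 windows of the same length. The PU.1 core was in 2 of the 8 windows, those of Ctsk and Oscar, against 23.3% of all windows. The NFAT core was in 5 windows of Acp5, Calcr and Oscar, and is common, at 55.6% of all windows. TGAGTCA and CACGTG, in 4.46% and 6.02% of all windows, were in none of the 8, and the window of Tnfrsf11a held none of the motifs. A match is a string of letters and was not tested as a binding site.

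All 10 genes were expressed in the growth plate, and their levels spanned a wide range. Levels between genes were compared as CPM, scaled between mice with trimmed mean of M values (TMM) factors, per kb of exon. The genes that encode secreted enzymes were highest. Acp5, the tartrate-resistant acid phosphatase used as an osteoclast stain, had 936 ± 145 CPM per kb (SD, n = 7) and ranked 18 of 15833 tested protein-coding genes. Ctsk, the cathepsin that digests bone collagen, had 532 ± 140 CPM per kb (SD, n = 7) and ranked 37. Itgb3, the β subunit of the integrin with which osteoclasts attach to bone, followed with 38.4 ± 6.28 CPM per kb (SD, n = 7).

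Nfatc1, Oscar, Ocstamp and Dcstamp formed a middle group with 9.02 ± 1.19, 8.86 ± 1.54, 8.68 ± 1.20 and 8.42 ± 0.869 CPM per kb (SD, n = 7), respectively. Neighbours inside this group did not differ beyond their spread, since each was above the next in only 4 of 7 mice. Atp6v0d2, a subunit of the proton pump that is enriched in osteoclasts, had 5.97 ± 1.19 CPM per kb (SD, n = 7). Tnfrsf11a, which encodes RANK, had 2.13 ± 0.312 CPM per kb (SD, n = 7). Calcr, the receptor through which calcitonin halts resorption, was lowest at 0.623 ± 0.210 CPM per kb (SD, n = 7) and ranked 11974. All other neighbours in this order kept it in 7 of 7 mice.

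**Figure D1:**
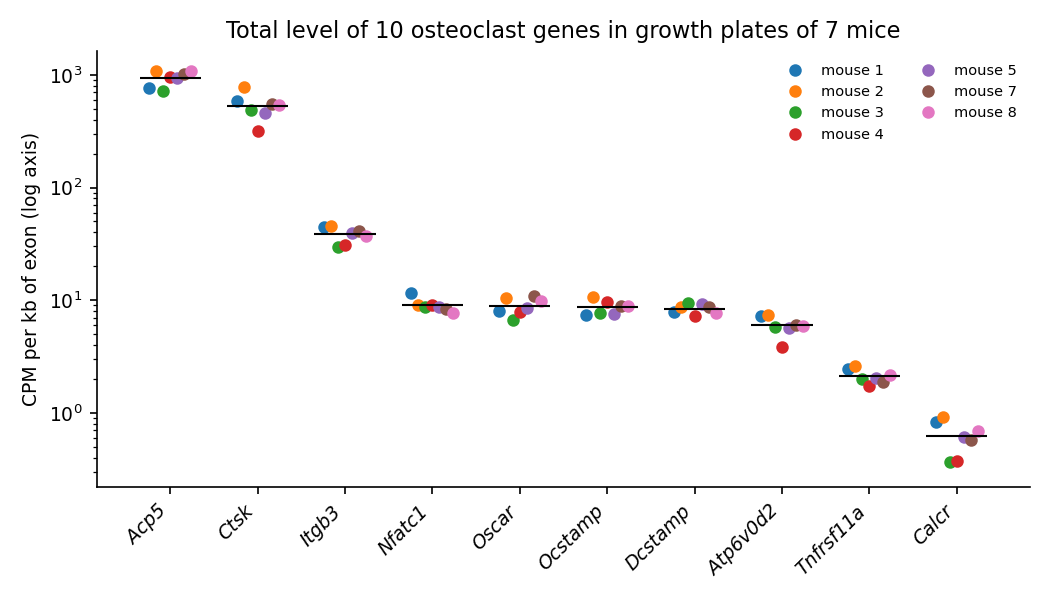
Level of each of the 10 genes in each of 7 mice, as CPM per kb of exon on a log axis, with genes ordered by mean and points coloured by mouse. Black lines are means, which fall from 936 for Acp5 to 0.623 for Calcr, and the points of Nfatc1, Oscar, Ocstamp and Dcstamp overlap.

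Within a gene, mice differed by less. In CPM not divided by length, Acp5 was 1473 at the lowest, 1934 at the median and 2213 at the highest. Ctsk ranged from 476 in mouse 4 through a median of 824 to 1171 in mouse 2. Itgb3 ranged from 175 through 234 to 269. The enzymes thus did not share their low mouse, as mouse 4 was at the median for Acp5 and lowest for Ctsk.

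Calcr had 1.43 CPM at the lowest, 2.38 at the median and 3.60 at the highest. Its coefficient of variation between mice was 33.7%, above the 26.3% of Ctsk and the 20.02% of Atp6v0d2, which ranged from 10.4 through 15.9 to 20.2 CPM. With TMM factors, though not without them, Dcstamp had the smallest coefficient of variation of the 10, at 10.3%. It had 19.2, 23.2 and 25.3 CPM at the lowest, median and highest. These coefficients also differ with depth. Autosomal genes of like total count had a median of 19.5% for Calcr, 17.9% for Ctsk and 10.9% for Dcstamp. Against such genes Acp5 was steadier than Dcstamp, with 35.1% and 44.4% of them below, respectively. In bulk tissue, fewer osteoclasts in a dissection, less RNA per osteoclast and a different share of other cells cannot be told apart.

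The other 4 genes lay between these. Tnfrsf11a had 10.3, 12.1 and 15.6 CPM at the lowest, median and highest, and Oscar, a collagen receptor that assists RANK, had 12.2, 15.6 and 19.95. Ocstamp had 27.1, 32.2 and 38.9 CPM at the lowest, median and highest. Nfatc1 had 57.4, 65.5 and 85.8 CPM, and its highest value, in mouse 1, stood apart from the 6 others, which ended at 68.2.

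Mouse 2 had the highest CPM for 6 of the 10 genes, and mice 3 and 4 had the lowest for 4 each. This order depended on the scaling, because without TMM factors mouse 1 was highest for 5 genes and mouse 4 lowest for 6. The summed CPM of the 10 genes ran from 2549 in mouse 3 to 3820 in mouse 2. Among the marker lists, the osteoblast sum was also highest in mouse 2 (131645 CPM, against 72598 in mouse 7), and the macrophage sum (658 CPM, against 1035 in mouse 7), the erythroid sum (8088 CPM, against 19669 in mouse 5) and the B lineage sum (158 CPM, against 368 in mouse 7) were also lowest in mouse 3. The chondrocyte sum was highest in mouse 4 (110657 CPM) and lowest in mouse 1 (61568 CPM). The neutrophil sum was 1564 to 3136 CPM, the endothelial sum 235 to 300 and the muscle sum 3550 to 7055. The part of these cells in the levels was not tested.

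The 10 genes did not follow a single profile across mice. Likeness was measured as Pearson's r of log2 CPM with Acp5, the gene of largest mean count, over 7 mice, with an exact permutation test over all orders of the mice. Oscar was the most like Acp5 of the 9 others, at r = 0.86 and rho = 0.75 (exact permutation p = 0.0109, 0.537 after Benjamini-Hochberg adjustment over 15111 genes), and r was 0.77 without mice 1 and 3. Ocstamp had r = 0.74 and rho = 0.71 (exact permutation p = 0.0690, adjusted 0.552), Ctsk r = 0.19 and Nfatc1 r = -0.57. No gene of the 15111 passed an adjusted p of 0.05, and 1389 passed it unadjusted.

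Outside the 10 genes, the profiles most like that of Acp5 were those of Npc2 (r = 0.99), Gm13305, Hexa, Slc7a6os, Cog2, Mindy1, Engase, Ptger2, Lancl1 and Nudt22 (r = 0.97), in that order. Npc2 and Hexa encode lysosomal proteins, and Ptger2 encodes a receptor for prostaglandin E. Each of these also had an adjusted p of 0.537 in the exact permutation test.

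A second profile was seen after the values were known, with Ctsk as the reference. Atp6v0d2 followed Ctsk at r = 0.95 and rho = 1.00, so the 7 mice had the same order for both (exact permutation p = 0.000198, the smallest that the orders of 7 mice can give, adjusted 0.529), and r was 0.76 without mice 2 and 4. Tnfrsf11a had r = 0.86 with Ctsk, Calcr 0.81 and Itgb3 0.74, which fell to 0.52, 0.58 and 0.51 without these mice. Here too no gene passed an adjusted p of 0.05, and 820 passed it unadjusted in the exact permutation test. Of the 9 osteoblast markers, Dmp1, which was named because of this value, had r = 0.94 with Ctsk, and the 8 others ran from -0.46 for Alpl to 0.47 for Ibsp. Of the 45 pairs among the 10 genes, 35 had a positive r, with a median of 0.30 and a range from -0.57 for Acp5 and Nfatc1 to 0.95.

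**Figure D2:**
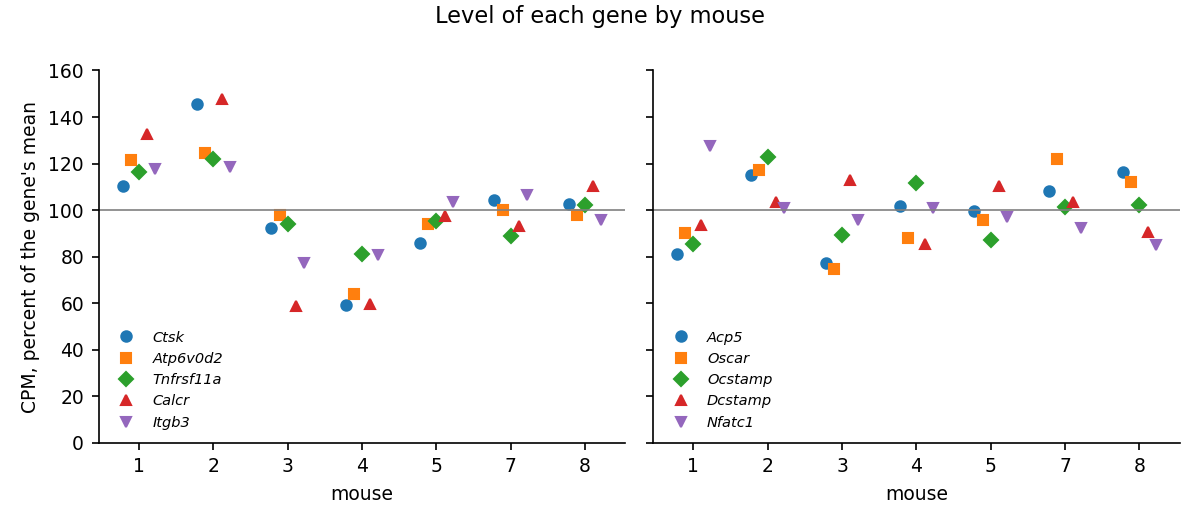
Level of each gene in each mouse as a percent of the gene's mean CPM over 7 mice, with the 5 genes of r above 0.7 with Ctsk (Ctsk included) on the left and the 5 others on the right. On the left mouse 2 is high and mouse 4 is low for Ctsk (1171 and 476 CPM) and Atp6v0d2 (20.2 and 10.4 CPM), while on the right mouse 1 stands out for Nfatc1.

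An allele difference was called for 3 of the 10 genes, all with the CAST allele higher. These were Calcr, Itgb3 and Tnfrsf11a, all receptors at the cell surface. Allele counts were compared with edgeR's likelihood-ratio test over 21805 genes, and a false discovery rate (FDR, Benjamini-Hochberg) under 0.20 was called. The study used the same threshold for genes of its mapped region. It does not state over how many genes it adjusted, so equal FDR values can differ in strictness. In simulated counts this test made more false calls than the FDR states. Of all tested genes 32.6% were called, 15.4% with CAST higher and 17.2% with B6 higher, so 3 of 10 is near the background. The median size of the log2 fold change was 0.20 for the 10 genes and 0.22 for all tested genes. In a fit limited to genes that reached 10 counts in each mouse, as all of the 10 did, these medians were 0.203 and 0.175. Which median was larger therefore depended on the count filter. At an FDR under 0.05, with 22.1% of all genes called, Calcr was the only one of the 10.

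That test sets the 7 CAST columns against the 7 B6 columns and does not use the fact that both alleles of a mouse share a library. With the mouse as a replicate block, 8 of the 10 genes were called by the likelihood-ratio test, against 42.7% of all tested genes, and 7 by the quasi-likelihood test, against 37.6%. In the blocked likelihood-ratio test 4 were higher from CAST (the 3 above and Oscar) and 4 higher from B6 (Acp5, Ctsk, Atp6v0d2 and Nfatc1). The shares of all tested genes in these directions were 20.9% and 21.8%. The blocked quasi-likelihood test left out Acp5, with 18.3% of all genes higher from CAST and 19.3% from B6. Without the block, the quasi-likelihood test called the same 3 genes as the likelihood-ratio test, against 31.1% of all tested genes, of which 14.7% were higher from CAST and 16.4% from B6. By direction alone, Acp5, Ctsk, Calcr and Itgb3 had all 7 mice on the same side, which held for 22.8% of all tested genes and for 26.3% of the 14526 autosomal genes that reached 10 counts in each mouse.

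**Figure D3:**
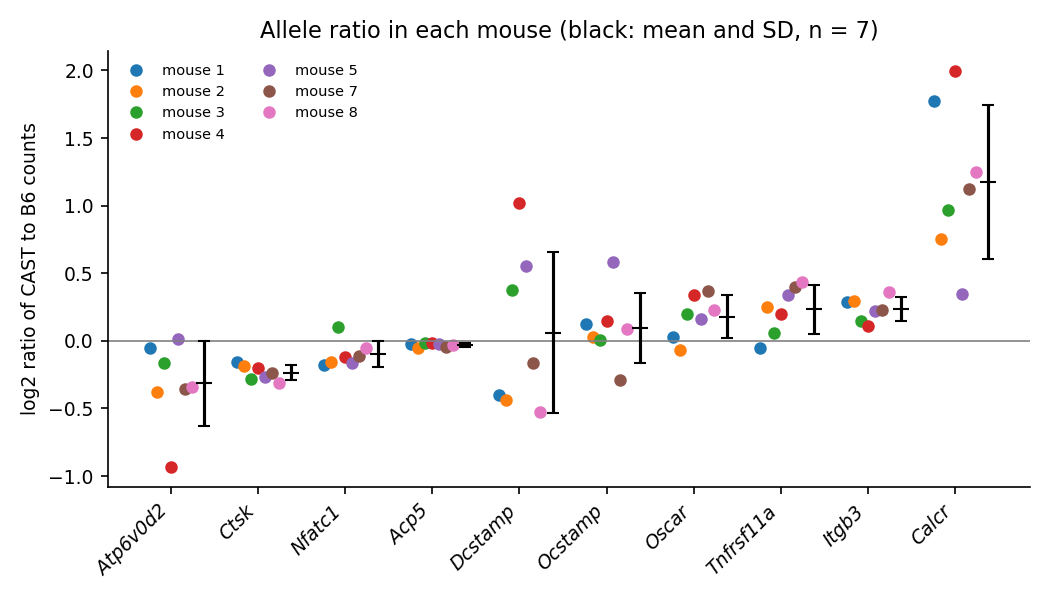
The log2 ratio of CAST to B6 counts in each of 7 mice for the 10 genes, ordered by mean, with the mean and SD in black. Calcr lies above 0 in every mouse (0.35 to 2.00), Ctsk lies below 0 in every mouse (-0.31 to -0.16), and Dcstamp spreads from -0.52 to 1.02.

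Calcr had the largest allele difference of the 10. The B6 allele had 5.10 counts at the lowest, 18.2 at the median and 40.9 at the highest, and the CAST allele had 21.9, 43.8 and 83.8. The CAST count was above the B6 count inside every mouse, although the ranges over the 7 mice overlap. Calcr lies on chromosome 6 from 3685680 to 3764714 (GRCm38).

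The fitted difference of Calcr was a log2 fold change of 1.13, or 2.19-fold (FDR 0.000724, edgeR's likelihood-ratio test), and the log2 ratio within mice was 1.17 ± 0.571 (SD, n = 7, exact sign-flip permutation p = 0.0156, the smallest that 7 mice allow). The log2 ratio was 1.77, 0.75, 0.97, 2.00, 0.35, 1.12 and 1.25 in mice 1, 2, 3, 4, 5, 7 and 8. Mouse 4, with the largest ratio, had only 27 counts, of which 18.9% were B6 (95% Wilson interval 8.18% to 36.7%). That interval covers counting error only, with every count taken as known for its allele. The size in a single mouse is therefore poorly known, while the direction was the same in all 7. Neither neighbouring gene was called with CAST higher. Vps50 on one side had a log2 fold change of 0.12 (FDR 0.693, edgeR's likelihood-ratio test), and Tfpi2 on the other had -0.60 (FDR 0.0779) with B6 higher in 7 of 7 mice.

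Itgb3 showed a small difference that had the same direction in every mouse. Its B6 allele had 2787 ± 1100.0 counts and its CAST allele 3306 ± 1357 (SD, n = 7). The log2 fold change was 0.26, or 1.20-fold (FDR 0.128 in edgeR's likelihood-ratio test). In the blocked quasi-likelihood test the FDR was 0.000934. Its log2 ratios ran from 0.11 through a median of 0.23 to 0.36 (exact sign-flip permutation p = 0.0156).

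The call of Itgb3 without the block was lost when mouse 2, 5, 7 or 8 was left out, at FDR 0.210, 0.209, 0.202 and 0.259 in edgeR's likelihood-ratio test. In 3 mice its total was not a whole number, which marks reads the authors' method divided between genes. The gene lies on chromosome 11 from 104608000 to 104670476 (GRCm38), and its neighbours Myl4 and Mettl2 had log2 fold changes of 0.29 (FDR 0.354) and 0.21 (FDR 0.262), each higher from CAST in 6 of 7 mice.

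Tnfrsf11a, the RANK gene, passed the threshold narrowly. It had 160 ± 66.9 B6 counts and 185 ± 68.7 CAST counts (SD, n = 7), with a log2 fold change of 0.24. In edgeR's likelihood-ratio test its unadjusted p was 0.0633 and its FDR 0.196. In the blocked quasi-likelihood test the FDR was 0.0355. The log2 ratio was -0.05 in mouse 1, 0.25 at the median and 0.44 at the highest (exact sign-flip permutation p = 0.0312). CAST was thus higher in 6 of 7 mice. The unblocked call was lost without any of mice 2, 3, 4, 5, 7 and 8, with an FDR of 0.215 to 0.397, and the total was not whole in 3 mice. Its neighbours on chromosome 1 were Relch, at 0.14 (FDR 0.352), and Zcchc2, at -0.40 (FDR 0.00104) with B6 higher in 7 of 7 mice.

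Oscar, the remaining receptor, had 202 ± 70.4 B6 counts and 224 ± 61.9 CAST counts (SD, n = 7). Its log2 fold change of 0.19 did not pass (FDR 0.364, edgeR's likelihood-ratio test), although it did with the mouse as a block (FDR 0.0566, quasi-likelihood test). The log2 ratio was above 0 in all mice but mouse 2, from -0.06 through 0.20 to 0.37 (exact sign-flip permutation p = 0.0469).

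Ctsk had more B6 counts in every mouse by a narrow margin. The B6 allele had 11667 ± 4793 counts and the CAST allele 9958 ± 4279.5 (SD, n = 7), and the log2 ratio was -0.31 at the lowest, -0.24 at the median and -0.16 at the highest (exact sign-flip permutation p = 0.0156). The counts varied widely between mice, while the SD of the ratio was 0.0557, against a median of 0.0469 for 120 autosomal genes of like total count. The fitted log2 fold change, -0.21, missed the threshold without the block (FDR 0.497, edgeR's likelihood-ratio test) and passed with it (FDR 0.000475, quasi-likelihood test). Beside it on chromosome 3, Ctss, another cathepsin gene and named after its values were seen, had a log2 fold change of -0.60 (FDR 2.86e-06, edgeR's likelihood-ratio test) with B6 higher in 7 of 7 mice. Arnt, on the other side, had 0.06 (FDR 0.760).

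Acp5 had nearly equal alleles. B6 counts averaged 25074 and CAST counts 24567, so the B6 share was 50.5% ± 0.251 (SD, n = 7). The share was above 50% in all 7 mice (log2 ratio -0.03 ± 0.0145, SD, n = 7, exact sign-flip permutation p = 0.0156), but the fold change of 0.993 did not pass without the block (FDR 1.00, edgeR's likelihood-ratio test) or with it in the quasi-likelihood test (FDR 0.439). The blocked likelihood-ratio test alone called it, at FDR 2.49e-06.

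Atp6v0d2 had 237 ± 86.9 B6 counts and 203 ± 97.2 CAST counts (SD, n = 7). Its log2 fold change of -0.25 did not pass without the block (FDR 0.326, edgeR's likelihood-ratio test) and did with it (FDR 0.137, quasi-likelihood test). The log2 ratio was -0.94 in mouse 4 and -0.38 to 0.02 in the other mice, with B6 higher in 6 of 7 (exact sign-flip permutation p = 0.0312).

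Nfatc1, the transcription factor of the group, had 943 ± 386 B6 counts and 875 ± 331 CAST counts (SD, n = 7). This difference, -0.08 on the log2 scale, missed the threshold without the block (FDR 0.725, edgeR's likelihood-ratio test), and passed with it (FDR 0.171, quasi-likelihood test). Its log2 ratios ran from -0.18 through -0.12 to 0.11, with mouse 3 alone above 0 (exact sign-flip permutation p = 0.0469).

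The fusion genes Dcstamp and Ocstamp encode membrane proteins that osteoclast precursors need to join into multinucleate cells. Neither passed the test with or without the block. Ocstamp had 394 ± 94.7 B6 counts and 433 ± 145 CAST counts (SD, n = 7), with a log2 fold change of 0.11 (FDR 0.632, edgeR's likelihood-ratio test). Its log2 ratios ran from -0.29 through 0.09 to 0.58 (exact sign-flip permutation p = 0.422), and its total was not whole in any of the 7 mice.

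Dcstamp did not pass the test, and its mice differed from each other in direction. It had 295 ± 111 B6 counts and 308 ± 143 CAST counts (SD, n = 7). The fitted difference was 0.08 on the log2 scale (FDR 0.867 in edgeR's likelihood-ratio test), and the log2 ratio within mice was 0.06 ± 0.594 (SD, n = 7, exact sign-flip permutation p = 0.812). The log2 ratio was -0.40, -0.44, 0.38, 1.02, 0.55, -0.16 and -0.52 in mice 1, 2, 3, 4, 5, 7 and 8. CAST was thus higher in mice 3, 4 and 5, and B6 in the 4 others. The B6 share ran from 32.9% in mouse 4 to 59.0% in mouse 8, and the 95% Wilson interval held 50% only in mouse 7. That interval takes every estimated count as a read that tells the alleles apart, so it can be too narrow.

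This spread was wide for a gene of its total count. The SD of the Dcstamp ratio was larger than that of 98.8% of 5326 autosomal genes of like depth, whose median SD was 0.203. Depth here is the total count, as the number of reads that tell the alleles apart was not known. Totals of Dcstamp were whole in all mice, and its total level had a coefficient of variation of 10.3%. Lrp12, its neighbour on chromosome 15 and named after the values were seen, had log2 ratios of 0.11, 0.12, -0.07, -0.13, 0.62, 0.28 and -0.28 in the same order of mice. Of mice 3, 4 and 5, in which Dcstamp was higher from CAST, Lrp12 was higher from CAST in mouse 5 only.

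**Figure D4:**
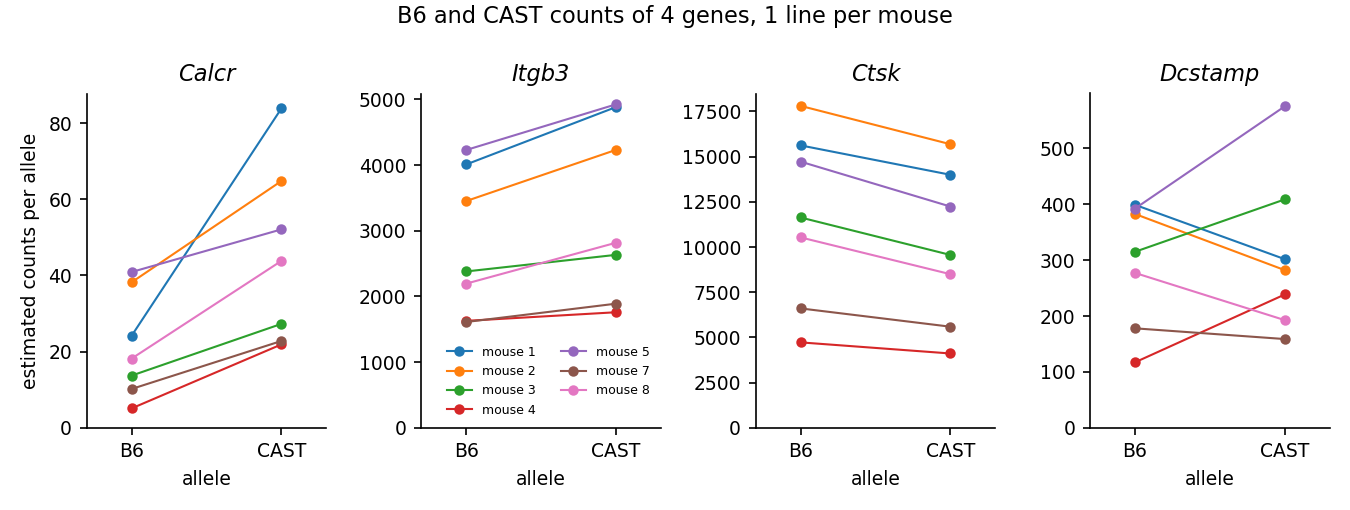
Estimated counts from the B6 and the CAST allele of Calcr, Itgb3, Ctsk and Dcstamp, with a line for each of 7 mice and axes from 0. All lines rise to CAST for Calcr and Itgb3, all fall for Ctsk, and those of Dcstamp cross, with B6 shares from 32.9% to 59.0%.

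Of 44 other genes of the osteoclast pathway, all tested, 7 were called (15.9%, against 32.6% of all tested genes), 4 with CAST higher and 3 with B6 higher. The 44 include Csf1 and Fcer1g, the latter named after its values were seen. Both had equal counts from the alleles in every mouse, so their alleles could not be compared. The median size of their log2 fold change was 0.09, against 0.22 for all tested genes. With the mouse as a replicate block 17 (38.6%) were called, 8 with CAST higher and 9 with B6 higher. The share of all tested genes was 42.7% in the likelihood-ratio test and 37.6% in the quasi-likelihood test. The blocked count is thus near the background, while the unblocked share of 15.9% was under its 32.6%. This difference was not tested.

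Neither the ligands nor their receptors outside the 10 genes were called. Tnfsf11 (RANKL) had 61.4 ± 26.4 B6 counts and 58.4 ± 18.2 CAST counts, and Tnfrsf11b, which encodes the decoy receptor osteoprotegerin, had 141 ± 54.7 and 137 ± 55.7 (SD, n = 7). Both had an FDR of 1.00 in edgeR's likelihood-ratio test. Csf1 had equal counts from both alleles in every mouse, so its alleles could not be compared. Csf1r was higher from CAST in 7 of 7 mice by 0.17 on the log2 scale (FDR 0.208, edgeR's likelihood-ratio test, or 0.00634 in the blocked quasi-likelihood test), and its totals were not whole in any mouse.

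Among the called genes were members of the acid and protease machinery. Car2, the carbonic anhydrase that supplies protons for acid secretion, had 1548 ± 848 B6 counts and 528 ± 212 CAST counts (SD, n = 7), and its fitted log2 fold change was -1.51 (FDR 1.62e-22 in edgeR's likelihood-ratio test). Mmp9, a gelatinase that osteoclasts secrete, had 34011 ± 12425 B6 counts and 21103 ± 7780.1 CAST counts (SD, n = 7), and its fitted log2 fold change was -0.67 (FDR 4.19e-06). Tcirg1, a subunit of the osteoclast proton pump, differed the other way, with 1678 ± 525 B6 counts and 2705 ± 994 CAST counts (SD, n = 7) and a log2 fold change of 0.69 (FDR 1.28e-08), although its total was not whole in any mouse. Each of these 3 had the same direction in 7 of 7 mice. Of the other pump subunits, Atp6v0d2 was not called, nor were Atp6v1b2 (-0.08, FDR 0.778) and Atp6v1c1 (-0.03, FDR 1.00), both named after their values were seen. In the blocked quasi-likelihood test Atp6v0d2 (FDR 0.137) and Atp6v1b2 (FDR 0.0322) were called with B6 higher. The difference between the subunits was not tested.

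The other 4 called genes encode signalling proteins. Sirpa, a receptor in precursor fusion, had a log2 fold change of 0.43 (FDR 2.94e-06, edgeR's likelihood-ratio test), and Src, the kinase needed for the ruffled border, had 0.32 (FDR 0.00745). Tyrobp, the adaptor DAP12, had 0.35 (FDR 0.0683), and Trem2, a receptor that pairs with it, had -0.53 (FDR 0.0250) with B6 higher in 6 of 7 mice. The adaptor and its receptor therefore differed in opposite directions.

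**Figure D5:**
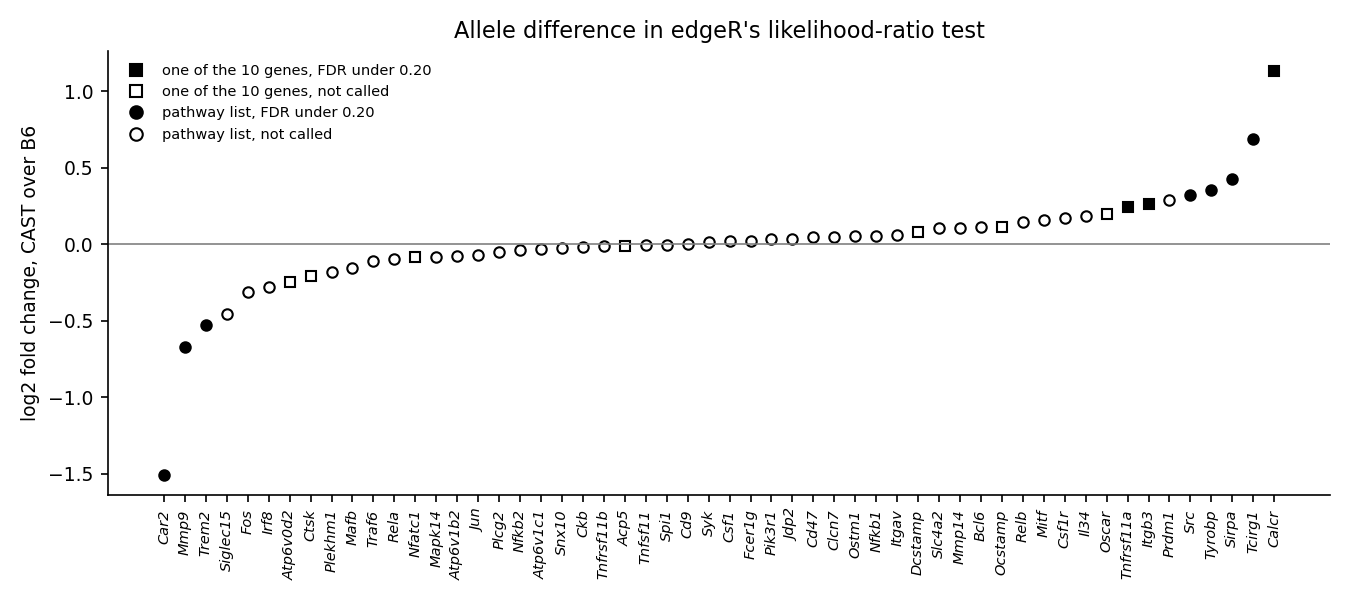
The log2 fold change of CAST over B6 in edgeR's likelihood-ratio test for the 10 genes (squares) and 44 other pathway genes (circles), ordered by value, with filled symbols for an FDR under 0.20. Car2 at -1.51 and Calcr at 1.13 lie at the ends, and most symbols are open and near 0.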

How the data were processed

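Total RNA was sequenced from tibial growth plates of 7 mice. Per the labels and the study's methods, the authors used Bowtie with up to 3 mismatches against B6 and CAST transcripts together (mm10) and deposited estimated counts from EMASE for each gene and allele, not normalized and not whole where reads were divided among alleles or genes. A gene was tested where each mouse had a nonzero count from either allele (21805 of 43346, of which 42462 are in GENCODE release M21). Counts were rounded, TMM-scaled and compared with edgeR 4.0.16 (glmFit and glmLRT, R 4.3.3), FDR over all tested genes, CAST against B6. A sign-flip permutation test, two-sided, used log2 ratios with 0.5 added to each count. A total was called whole within 1e-04. Self-tests of the unblocked likelihood-ratio test on simulated counts recovered most changed genes, with more false calls than the FDR states.

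Alleles of a number come from the same mouse, so the mouse pairs them. Deviations of the alleles from their group means correlated at 0.105 within a mouse, on average, and at -0.018 between mice. These overlapped, as the lowest value within a mouse was -0.032 and the highest between mice was 0.201. Alternatives were the mouse as a block, the quasi-likelihood test of edgeR, DESeq2 1.42.0, other scalings, filters and thresholds, unrounded counts, genes with whole totals only, and each mouse left out. Likeness to Ctsk was added after the data were seen. The 10 genes, the pathway and marker lists and the motifs were chosen with earlier results of these data known. Genes named were the 10, Tnfsf11, Tnfrsf11b, Csf1 and Csf1r, called pathway genes, the 10 most like Acp5, neighbours of called genes, and up to 3 markers a list, except where the text says otherwise. Depth was 14098019 to 37849667 counts per mouse, and counting error is wide for genes such as Calcr. The exact permutation p-values rest on the spread between these 7 mice. Those of edgeR use a spread estimated partly across genes. Without the block they treat the 14 allele columns as independent, so that spread includes differences in level between mice. Wilson intervals are at 95% and take every estimated count as a read that tells the alleles apart, so they can be too narrow.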

Additional observations from a re-analysis of the deposited data

Results flagged for a closer look

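Each of 39 sets of 7 mice (CPM and log2 ratios of the 10 genes, log2 ratios of the called pathway genes and of Tnfsf11, Tnfrsf11b, Csf1 and Csf1r, and summed CPM of the lists) was searched for a mouse far from the others by Dixon's criterion, which flags about 1 set in 20 by chance, or 1.95 of these, and 2 were found. In Atp6v0d2, mouse 4 had a log2 ratio of CAST to B6 counts of -0.94, with the 6 others between -0.38 and 0.02. In Nfatc1, mouse 1 had 85.8 CPM, with the 6 others between 57.4 and 68.2.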

How the results depend on the processing

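With the mouse as a replicate block, which pairs the alleles, 8 of the 10 genes were called by the likelihood-ratio test and 7 by the quasi-likelihood test, and 17 of the 44 pathway genes (38.6%) by each, against 42.7% and 37.6% of all tested genes. Newly called under the block were Acp5 (-0.0090, likelihood-ratio test only), Ctsk (-0.21 in both tests), Atp6v0d2 (-0.26 in both), Oscar (0.18 and 0.19) and Nfatc1 (-0.080 and -0.079), given as log2 fold changes. Without TMM 1 of the 10 genes was called, at an FDR under 0.05 also 1, and with each mouse left out 1 to 3. Among genes with whole totals only, a fit that holds 7 of the 10, 1 was called, and 3453 of all genes, as fewer genes were tested. That fit lacks Itgb3, Tnfrsf11a and Ocstamp, so the calls of Itgb3 and Tnfrsf11a could not recur in it. Calcr was called with CAST higher in every alternative run.

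Tnfrsf11a kept its direction but lost its call in DESeq2 (0.23), without TMM (0.24), with 1 library size per mouse (0.22), with DESeq2 size factors (0.23), with genes above 0 in some column (0.24) and among autosomal genes (0.23), and its log2 fold change was 0.21 to 0.29 with each mouse left out. Itgb3 lost its call without TMM (0.27) and had 0.25 to 0.28 with each mouse left out. Dcstamp changed sign without mouse 4 or mouse 5, and ranged from -0.050 to 0.165. The cause was not tested.

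The setting without Rn7s1, Rn7s2 and Rn7sk in the library sizes used no TMM factors either. In it mean CPM rose to 2378 for Acp5, 20.4 for Atp6v0d2, 20.5 for Oscar, 16.0 for Tnfrsf11a, 28.1 for Dcstamp, 39.6 for Ocstamp, 284 for Itgb3 and 84.4 for Nfatc1. The smaller total and the lack of TMM factors both enter these values. The r of Atp6v0d2 with Acp5 turned to 0.17 without TMM and 0.089 without both TMM and these RNAs. With each mouse left out, r with Acp5 crossed 0 for Atp6v0d2 (-0.34 to 0.21), Calcr (-0.036 to 0.76), Ctsk (-0.12 to 0.41), Dcstamp (-0.51 to 0.13), Itgb3 (-0.20 to 0.72) and Tnfrsf11a (-0.35 to 0.38), and r with Ctsk for Acp5 (-0.12 to 0.41), Dcstamp (-0.31 to 0.51), Nfatc1 (-0.19 to 0.24) and Ocstamp (-0.55 to 0.81). With 7 mice, profiles are loosely known, and of the 10 genes Calcr and Tnfrsf11a had the fewest counts.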
